A study of Drosophila melanogaster with 3 samples.

Results

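The genes described are 10 genes of Drosophila melanogaster that encode parts of the machinery that starts and runs DNA replication: PCNA, Mcm2, Mcm3, dpa (which encodes Mcm4), Mcm5, Mcm6, Mcm7, Orc1, Orc2 and Orc5. They were listed by name as genes with known promoters of the DREF type, and all 10 were found among the 13945 protein-coding genes of the annotation on the 6 chromosome arms used. The measurement was chromatin immunoprecipitation with sequencing (ChIP-seq) in 3 biological replicates of a single group. Each replicate was a pool of male and female embryos aged 0 to 24 h from the strain Dhr51-GFP, 1 transgenic line with green fluorescent protein (GFP) fused to the nuclear receptor Hr51 at its C-terminal end. The labels describe an insertion targeting Hr51 and say that the fusion was precipitated with an anti-GFP antibody, while another label gives the antibody as Hr51. Peaks come from all cells of the embryo together, no control library was among the samples, and a control that the labels name as possible was not analysed here.

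Replication origins are marked by the origin recognition complex, of which Orc1, Orc2 and Orc5 are subunits. With Cdc6 and the Cdt1 protein, it loads the ring of Mcm2 to Mcm7, the replicative helicase. PCNA is the sliding clamp that tethers DNA polymerases to the template. In flies many such genes are known targets of DREF, a factor that binds the DNA replication-related element TATCGATA, and of E2F with its partner Dp, which drives genes needed for S phase. Hr51 is best known from neurons of the mushroom body, where it acts in axon remodelling.

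The promoters of Mcm2, Mcm5, Orc2, Mcm3 and Mcm7 are shown because they cover the outcomes found. The outcomes run from peaks in the most stringent list to no peak at all. These promoters also hold exact words of either kind of consensus, or of neither. Each runs 5′ to 3′ on the plus strand of the RefSeq genome from 250 bases before the transcription start site (TSS) to 50 bases from it on, in Release 6 (dm6) coordinates. Capitals mark TATCGATA and the E2F consensus, for which TTTCCCGC or TTTCGCGC or TTTGCCGC or TTTGGCGC was sought, all on both strands. The Mcm2 promoter, chr3R:8264720-8265019, had a peak summit of the most stringent list at base 205 of the 300 shown. The Mcm5 promoter, chr3R:10788274-10788573, had such a summit at base 123. The Orc2 promoter, chr3R:13964635-13964934, had a weak summit of the pooled list at base 4. The Mcm3 promoter, chrX:5323605-5323904, and the Mcm7 promoter, chr3L:8891346-8891645, had no summit in any list.
Mcm2: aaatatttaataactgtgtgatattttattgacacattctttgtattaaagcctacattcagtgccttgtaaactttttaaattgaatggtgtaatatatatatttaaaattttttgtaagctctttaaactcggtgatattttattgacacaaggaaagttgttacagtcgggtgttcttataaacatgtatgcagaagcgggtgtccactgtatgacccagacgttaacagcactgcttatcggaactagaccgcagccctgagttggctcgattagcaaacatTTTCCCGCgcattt
Mcm5: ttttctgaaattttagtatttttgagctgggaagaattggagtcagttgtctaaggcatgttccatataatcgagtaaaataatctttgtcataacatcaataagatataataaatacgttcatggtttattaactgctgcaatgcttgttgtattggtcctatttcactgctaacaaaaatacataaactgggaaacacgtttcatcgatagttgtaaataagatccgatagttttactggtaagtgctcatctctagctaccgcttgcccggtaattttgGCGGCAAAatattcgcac
Orc2: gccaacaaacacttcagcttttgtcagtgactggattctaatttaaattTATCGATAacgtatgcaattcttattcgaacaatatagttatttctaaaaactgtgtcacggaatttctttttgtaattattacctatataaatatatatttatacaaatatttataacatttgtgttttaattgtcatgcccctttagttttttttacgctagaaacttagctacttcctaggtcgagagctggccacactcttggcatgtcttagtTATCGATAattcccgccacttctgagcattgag
Mcm3: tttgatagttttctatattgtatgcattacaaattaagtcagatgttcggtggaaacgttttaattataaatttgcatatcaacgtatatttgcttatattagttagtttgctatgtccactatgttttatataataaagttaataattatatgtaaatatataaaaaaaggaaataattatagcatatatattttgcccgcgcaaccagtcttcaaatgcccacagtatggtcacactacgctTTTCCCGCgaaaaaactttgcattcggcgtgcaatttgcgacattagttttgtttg
Mcm7: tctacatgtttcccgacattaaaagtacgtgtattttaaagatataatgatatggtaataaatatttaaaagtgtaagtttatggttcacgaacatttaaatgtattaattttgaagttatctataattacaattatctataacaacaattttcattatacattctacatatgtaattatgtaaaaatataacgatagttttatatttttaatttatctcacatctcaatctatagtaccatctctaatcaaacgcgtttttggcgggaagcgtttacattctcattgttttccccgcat

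The DREF letters were present at a minority of these genes, whereas E2F letters were present at most of them. TATCGATA lay in the promoters of 3 of the 10 genes, PCNA, Orc2 and Orc5, against 15 of 47 other replication genes (31.9%) and 1417 of the 13945 protein-coding genes (10.2%). The same 3 genes had it when 500 bp to either side of the TSS were searched, against 34.0% of other replication genes and 13.0% of all genes. With 1 end letter dropped, the 7 letters TATCGAT were in 4 promoters, Mcm5 being added, against 53.2% of other replication genes and 20.2% of all genes. The label of DREF-type promoters is therefore borne out letter for letter at 3 of 10 genes, and an exact word says nothing about weaker sites. E2F letters lay in the promoters of 7 genes, Mcm2, Mcm3, dpa, Mcm5, Mcm6, Orc1 and Orc5, against 42.6% of other replication genes and 8.69% of all genes. They were close to the TSS in each, from 6 bp upstream to 43 bp downstream at the match nearest to it. When 500 bp to either side of the TSS were searched, the same 7 genes had E2F letters. The shares there were higher, at 59.6% of other replication genes and 21.4% of all genes. Orc5 was the gene with both kinds of letters, and Mcm7 the gene with neither of these exact words. Here too, a missing exact word says nothing about weaker or differently spelled E2F sites. Matches are a description of these windows and not evidence of binding.

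A divergent layout was found at most of the promoters, at about the share of other replication genes. The nearest other protein-coding TSS was on the opposite strand, pointing away, and within 1000 bp at 6 of the 10 genes, against 63.8% of other replication genes and 33.8% of all genes. The TSS of didum was 2 bp from that of dpa, that of Arpc1 96 bp from Orc5, that of Art1 298 bp from Mcm5, that of CG3198 414 bp from Mcm6, that of RPA1 519 bp from Mcm2 and that of Kots 711 bp from Orc2. A summit between such TSSs cannot be assigned to one gene of the pair. Promoter windows held a median of 35.0% G and C over the 10 genes, 35.3% over other replication genes and 38.7% over all genes, with 25.7% at Mcm7 the lowest of the 10 and 42.3% at Orc5 the highest.

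The peaks came as 5 deposited lists in dm6. Each replicate, and the pool of all 3, has a relaxed list with 30000 entries. The optimal list of 3496 peaks was filtered by the irreproducible discovery rate (IDR), which is based on how alike replicates rank peaks. The IDR list held exactly the 3496 pooled peaks of highest signal. A peak in it therefore need not rank alike in every replicate. Signal is the value that the authors' peak caller gave each peak. It has no common scale between lists, so ranks within a list are given beside it, with rank 1 the highest. The relaxed lists include background, with a lowest deposited −log10 q of 0.0686 in the pooled list against 3.00 in the IDR list. No read counts were in the files, so the depth of each replicate is unknown.

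Of the 10 genes, 4 had a summit within 500 bp of a TSS in the IDR list. Another 4 had one in the pooled list and in 2 or 3 replicate lists but not in the IDR list, and 2 had none in any list. Shares of all protein-coding genes are not given for the last 2 of these outcomes, so neither is read as a result about the 10 genes. The IDR genes were dpa, Mcm2, Mcm5 and Orc1, or 40.0%, against 38.3% of other replication genes (18 of 47) and a background of 19.1% of all protein-coding genes. In the pooled list 8 of 10 genes had a summit, against 39 of 47 other replication genes and 54.2% of all genes. Where the pooled peak had to cover a TSS, the count was 4 of 10 genes, against 40.4% of all genes, so that the difference was no longer there. At a −log10 q of at least 2 the count was also 4, against 25.4%. The full lists of replicates 1, 2 and 3 each held 7 of the 10, against 54.4%, 50.8% and 52.6% of all genes. A summit was present in all 3 full lists at 5 genes, the IDR genes and Orc5, against 37.4% of all genes. With each replicate cut to its 3496 peaks of highest signal, replicate 1 held 4 genes, replicate 2 held 5 and replicate 3 held 2, a mean of 3.67 ± 1.53 (SD, n = 3). All protein-coding genes stood at 19.3%, 18.7% and 18.3% in these shortened lists, so replicate 3, with 20.0% of the 10 genes, was near the background. Only Mcm2 and dpa were in all 3 of these shortened lists, 20.0% of the 10 genes against 12.1% of all genes. Where an IDR peak also had to match the shortened lists of 2 replicates, the count was 2 genes without replicate 1 (12.5% of all genes), 2 without replicate 2 (13.2%) and 4 without replicate 3 (14.2%). The count of genes in every shortened list was likewise 4 without replicate 3, against 14.9% of all genes. With 10 genes, each gene weighs 10 percentage points, and no test of these differences was run.

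**Figure D1:**
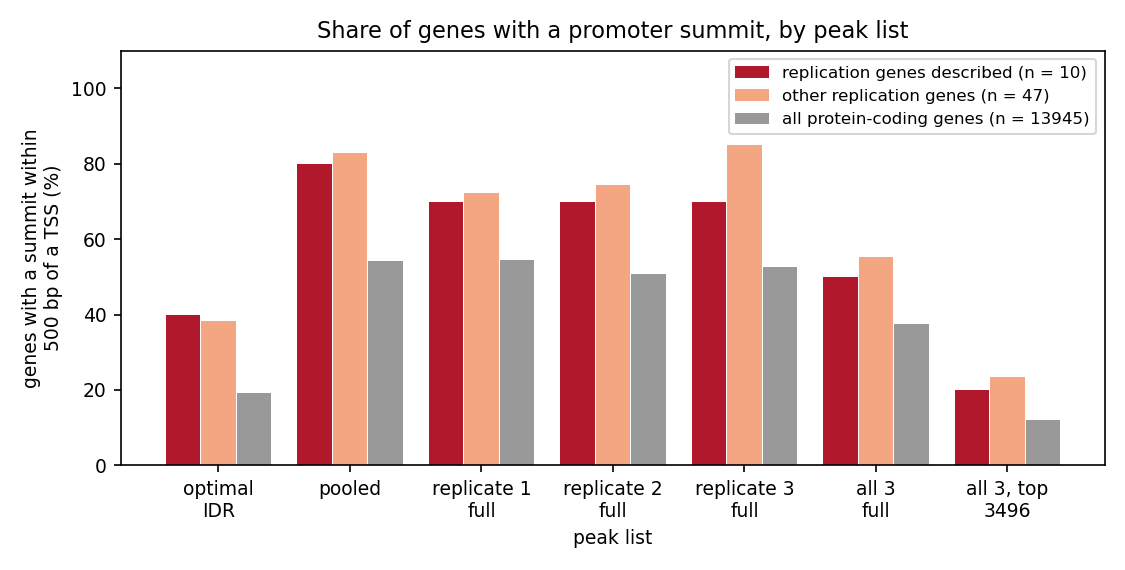
Bars give the percentage of genes with a summit within 500 bp of a TSS in each peak list, for the 10 replication genes described, 47 other replication genes and all 13945 protein-coding genes. The 10 genes stood at 40.0% in the IDR list and 80.0% in the pooled list, close to the other replication genes, with all genes at 19.1% and 54.2%.

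Among the helicase genes the strongest peak was at dpa, which encodes the Mcm4 subunit (FBgn0015929, 2R 7496702 to 7500145, minus strand). Its summit at 7499982 had a pooled signal of 234 and rank 454, and lay between the TSSs of its 2 transcripts, 105 bp upstream of the inner one and in a 5′ UTR of dpa. The signals in replicates 1, 2 and 3 were 88.1, 99.1 and 52.5, with ranks of 391, 295 and 1008. Every replicate thus placed it among its strongest peaks, with replicate 3 the lowest of them, and the 3 summits lay within 20 bp of each other. A match to the E2F letters was centred 22 bp from the pooled summit. The same summit was within 500 bp of the TSS of didum, the myosin V gene on the other strand.

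Mcm2 (FBgn0014861, 3R 8264970 to 8267924, plus strand) had a peak of similar rank in all 3 replicates. Its pooled summit at 8264924, 46 bp upstream of the TSS in the gap between Mcm2 and RPA1, had a signal of 134 and rank 1412. The ranks were 2010, 1730 and 1248 in replicates 1, 2 and 3, on signals of 39.1, 41.2 and 47.9, and the summits fell within 16 bp of each other. Replicate 3 was the highest here, unlike at dpa, Mcm5 and Orc1. The summit was also 473 bp from the TSS of RPA1, the large subunit of the single-strand DNA-binding complex, so that a single peak gives both replication genes their count. In the sequence shown, the E2F match is centred 86 bp downstream of the summit.

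Mcm5 (FBgn0017577, 3R 10788524 to 10791150, plus strand) had a pair of overlapping IDR peaks near its TSS and that of Art1, a protein arginine methyltransferase gene. The farther one, 337 bp upstream in the 5′ UTR of Art1, had a pooled signal of 95.8 and rank 2503. The nearer one, 128 bp upstream, had a signal of 82.3 and rank 3193. In replicates 1 and 2 the farther peak ranked 1540 and 1537, with signals of 46.0 and 44.0. In replicate 3 it ranked 25591 with a signal of 9.59, near the bottom of that list. Replicate 3 had its higher summit 2 bp from the Mcm5 TSS, with a signal of 20.1 and rank 6485. That summit was matched to the nearer pooled peak, at an offset of 130 bp. Replicates 1 and 2 also had summits matched to the nearer peak, 138 bp and 81 bp upstream at ranks 2759 and 5755. Every replicate thus had a summit matched to each peak of the pair, and replicate 3 ranked the pair in the opposite order.

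The remaining helicase genes had weak summits or none. Mcm6 (FBgn0025815, X 6674387 to 6677176, plus strand) had a pooled summit 32 bp downstream of its TSS with a signal of 46.0 and rank 7694, below the lowest IDR signal of 77.3, and 16 bp from the centre of an E2F match. Replicates 1 and 3 had summits 168 bp and 24 bp from the TSS, at ranks 8461 and 15248, and replicate 2 had none within 500 bp, the nearest being 3814 bp away. Mcm3 (FBgn0284442, X 5323855 to 5326738, plus strand) had none in any list. Its nearest pooled summit was 1094 bp from the TSS and was an IDR peak at rank 2411, with a signal of 97.9, that lay 65 bp from the TSS of Rnp4F, a splicing factor gene on the other strand. Mcm7 (FBgn0020633, 3L 8891596 to 8894310, plus strand) had none either. Its nearest pooled summit, 1282 bp away in its own coding sequence, ranked 27138, and its nearest IDR summit was 20855 bp away. Of the 6 subunits of the ring, 3 therefore had an IDR summit at the promoter, against 19.1% of all protein-coding genes. In the pooled list 4 of the 6 had one, against 54.2% of all genes, and 2 had no summit in any list. The share of all genes with no summit in any list is not given. With 6 genes, a mix of outcomes is not a result about the complex.

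**Figure D2:**
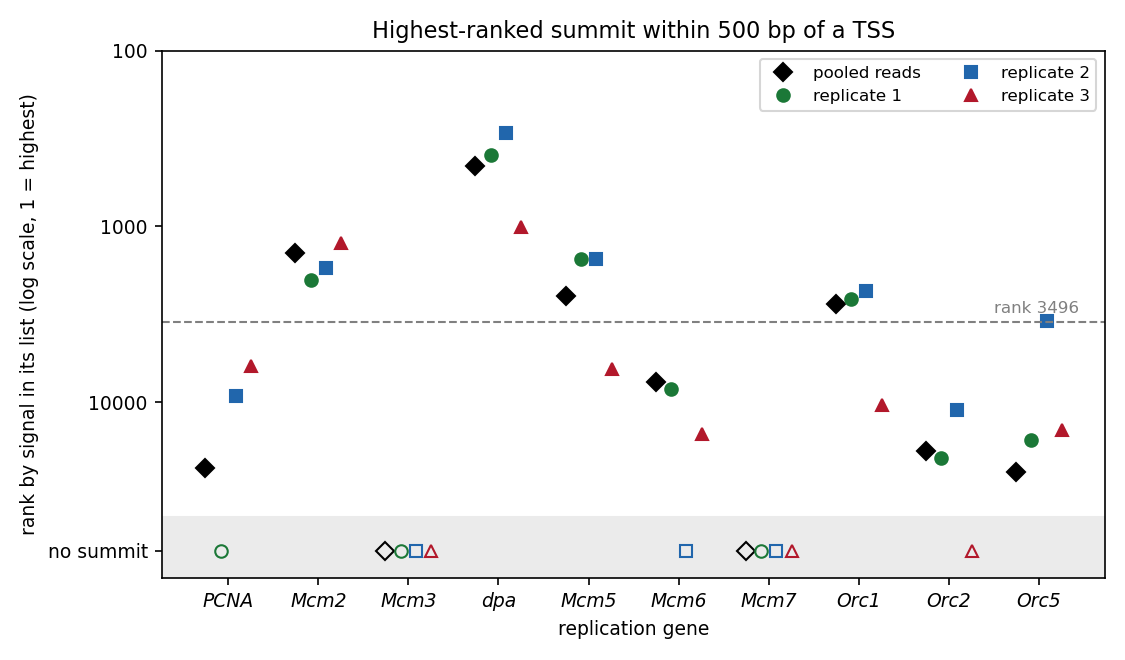
Points give the rank by signal, on a log scale with rank 1 at the top, of the highest-ranked summit within 500 bp of a TSS in the pooled list and in each replicate. The grey band holds genes with no summit, and the dashed line marks rank 3496, the length of the IDR list. dpa and Mcm2 lie above the line in all 3 replicates, Mcm5 and Orc1 in replicates 1 and 2, and Mcm3 and Mcm7 have no summit.

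Of the origin recognition genes, Orc1 alone had an IDR summit. Orc1 (FBgn0286788, 2R 7522437 to 7525716, minus strand), which encodes an ATP-binding subunit of the complex, had a summit 56 bp upstream of its TSS with a pooled signal of 89.7 and rank 2781. Signals of 33.6, 34.9 and 15.8 in replicates 1, 2 and 3 put it at ranks 2596, 2321 and 10420. Its summits lay within 12 bp of each other, and replicate 3 had the site at a much lower rank. No other protein-coding TSS was within 500 bp, and an E2F match was centred 62 bp away.

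Orc2 and Orc5 had summits in the relaxed lists that the 3 replicates did not place at a common site. At Orc2 (FBgn0015270, 3R 13964885 to 13967075, plus strand) the pooled summit was 247 bp upstream, with a signal of 27.7, rank 19067 and a −log10 q of 0.231. It was 50 bp from the upstream one of the TATCGATA matches in the sequence shown. Replicate 1 had a summit 8 bp from it at rank 20735, replicate 2 had summits 492 bp upstream and 439 bp downstream of the TSS, and replicate 3 had none within 500 bp, the nearest being 607 bp away. At Orc5 (FBgn0015271, 2L 13829837 to 13831576, plus strand) the pooled summit lay 478 bp downstream in the coding sequence, just inside the 500 bp limit, with a signal of 23.6 and rank 25022. Replicate 2 had it at 476 bp with a signal of 27.6 and rank 3471, just inside its shortened list of 3496. Replicates 1 and 3 had their summits upstream, in Arpc1, at 466 bp and 402 bp and ranks 16531 and 14439. The best summits of the replicates spanned 942 bp, so the count of 5 genes in all 3 full lists includes a gene with no site common to all 3 replicates.

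PCNA (FBgn0005655, 2R 20261754 to 20262883, minus strand) resembled the weak origin genes. It has 2 annotated TSSs, an outer one at 20262883 and an inner one at 20262810, and distances are from the nearer. Its TATCGATA lay 27 to 20 bp upstream of the outer TSS. The pooled summit, 279 bp upstream of the outer TSS in an intron of plu, had a signal of 24.5, rank 23619 and a −log10 q of 0.139. Replicate 2 had summits at ranks 9222 and 16802, 372 bp downstream of the inner TSS and 334 bp upstream of the outer one. Replicate 3 had one 104 bp upstream with a signal of 20.6, rank 6198 and a −log10 q of 1.61. Replicate 1 had none, its nearest summit being 558 bp away. The nearest IDR summit was 1091 bp from PCNA, at rank 853 with a signal of 173, and lay 5 bp from the TSS of the ribosomal protein gene RpS18.

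**Figure D3:**
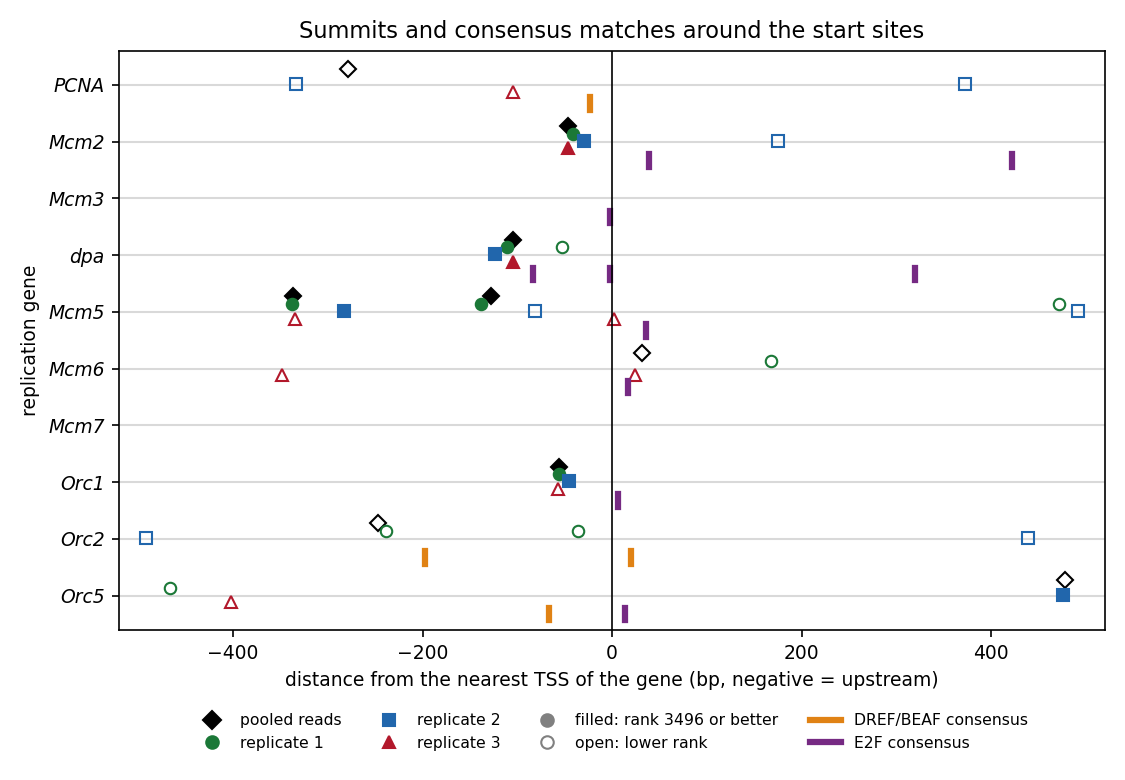
Each row shows the summits of the pooled list and of the 3 replicates by their distance in bp from the nearest TSS of the gene, filled where the rank in the list is 3496 or better, with the DREF/BEAF and E2F consensus matches as bars below the row. The strongest summits of all lists coincide upstream of the nearest TSS of Mcm2, dpa and Orc1, which at dpa is the inner TSS. Replicate spans there are 16, 20 and 12 bp. The best replicate summits span 144 bp at Mcm6, 253 bp at Orc2, 340 bp at Mcm5, 549 bp at PCNA and 942 bp at Orc5.

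Set against the letters, the 4 genes with an IDR summit were all genes with E2F letters, and none of the 3 genes with TATCGATA had one. Among all protein-coding genes the order was the other way, since genes with TATCGATA had an IDR summit at 33.6% and genes with E2F letters at 25.0%. Genes without TATCGATA had one at 17.5%, and genes without E2F letters at 18.6%. In the pooled list the 3 TATCGATA genes all had a summit, against 79.9% of all genes with those letters, and 6 of 7 E2F genes did, against 68.7%. The pooled summits at PCNA, Orc2 and Orc5 were weak, with a −log10 q of 0.139, 0.231 and 0.119. Of the 15 other replication genes with TATCGATA, 7 had an IDR summit, and 7 of 20 with E2F letters did. Counts of 3 and 7 genes give no test of a link between letters and peaks.

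The other replication genes, a list of 47 grouped by role, had IDR summits in every role. Of all protein-coding genes, 19.1% had one. Groups of 3 to 10 genes are too small to set a role apart from that share, and clamp loader was near it. Helicase activation had 4 of 8 genes, polymerases 4 of 10, origin recognition and licensing 2 of 6, replication fork and checkpoint 2 of 4, and lagging strand and topology 2 of 4. Clamp loader had 1 of 5, single-strand binding 1 of 3, nucleotide supply 1 of 3 and chromatin assembly 1 of 4. The highest was at PolD2, a subunit of DNA polymerase delta, with a signal of 243 and rank 413, next to dpa in level. The following one was at dup, the fly gene for Cdt1, with a signal of 232 and rank 466, and dup is 37235 bp from the gene Hr51 itself. Others in order were Top1 (rank 711), the ribonucleotide reductase gene RnrS (rank 764), the clamp loader gene CG8142 (rank 819), Ctf4 (rank 955) and the primase gene Prim1 (rank 1176). PolE4 (rank 1296), RPA1 through the peak shared with Mcm2 (rank 1412), the kinase gene Cdc7 (rank 1510), Top2 (rank 1825) and PolA1 (rank 2133) came next.

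The replicates did not order these genes alike. PolD2 ranked 543, 1510 and 166 in replicates 1, 2 and 3, and RnrS ranked 1249, 1511 and 361, so replicate 3 was the highest there as at Mcm2. Prim1 ranked 980, 944 and 3253, with replicate 3 the lowest as at dpa, Mcm5 and Orc1. All 12 of the genes named, and the 4 IDR genes of the 10, had summits in the full list of every replicate, against 37.4% of all genes. They were picked from the IDR list, which comes from the same replicates, so this count is no separate check. Of the whole origin recognition complex, 1 of 6 subunit genes had an IDR summit, near the 19.1% of all genes, and 5 of 6 had a pooled one, against 54.2%. Orc4 came closest to the IDR limit, with a pooled signal of 67.2, rank 4269 and a summit 71 bp upstream, found by all 3 replicates at 39, 59 and 57 bp from the TSS. Orc6 had none in the pooled list.

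**Figure D4:**
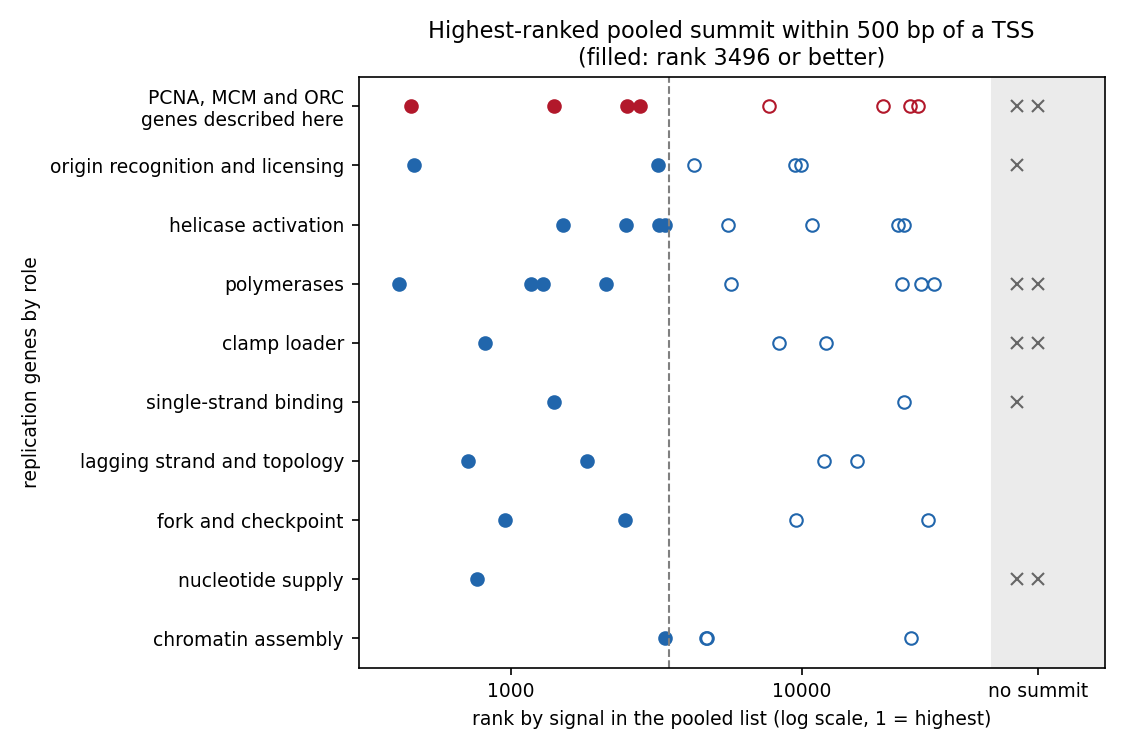
Points give the rank by signal in the pooled list, on a log scale, of each gene's highest-ranked summit within 500 bp of a TSS, by role, filled where it is in the IDR list. Crosses in the grey band are genes with no pooled summit. The 10 genes span ranks 454 to 25022 with 2 at no summit, and 39 of the other 47 span ranks 413 to 28374, with 8 at no summit.

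The genes most like dpa in rank over the pooled list and the 3 replicates, by mean absolute difference of log2 rank among 5151 genes with a summit in all 4 lists, were eEF1alpha1 (difference 0.15), Ufc1 (0.17) and CG43345 (0.17). The elongation factor gene eEF1alpha1 ranked 458 in the pooled list and 372, 373 and 902 in replicates 1, 2 and 3, with replicate 3 the lowest as at dpa. The pooled list is made from the replicates, so these 4 ranks are not independent.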

How the data were processed

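Peaks of Hr51-eGFP ChIP-seq, 3 biological replicates of 1 group, were read from 5 deposited dm6 lists. The signal per peak is the authors' deposited value. The deposited −log10 q per peak was used for description and 1 alternative. A text deposited by the authors beside the lists derives each relaxed list from alignments plus 1 further file, and the IDR list from those lists. Which aligner and peak caller were run was not given in the sources used here. Chromatin was sonicated to 200 to 800 bp, per the labels. The dm3 lists were not used here. A gene counted when a summit lay within 500 bp of an annotated TSS (Ensembl release 115, BDGP6.54). Peaks were ranked by signal within each list, and summits of different lists were matched within 150 bp. Sequence was RefSeq Release 6, the same assembly as dm6. The promoter was 250 bp before to 50 bp after the TSS.

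The 10 genes and all lists were chosen with earlier results of these data known. The text names these 10 genes, the genes sharing their peaks, the 12 other replication genes of highest IDR signal, and the 3 genes most like the strongest of the 10. Orc4, Orc6 and the genes next to distant summits were named after their values were seen. With 1 group no test was run, so counts are given beside all protein-coding genes. Alternatives were other windows, TSS sets and thresholds and leaving out each replicate. The counting was tested on simulated data. Python 3.11.15, numpy 2.4.6, pandas 2.3.3 and matplotlib 3.10.9 were used.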

Additional observations from a re-analysis of the deposited data

How the results depend on the processing

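Of 38 alternatives tried on the counts, 31 stayed within 1.5 times the reported count and 7 did not. The 4 genes with an IDR summit became 2 among the 1748 IDR peaks of higher signal (11.0% of all genes). They ranged from 2 to 4 when IDR peaks also had to match the shortened lists of 2 replicates. That setting is stricter, with 12.5% to 14.2% of all genes counted, and the IDR list itself still came from all 3 replicates. The 8 genes with a pooled summit became 4 when the peak had to cover a TSS (40.4% of all genes), and 4 at a −log10 q of at least 2 (25.4%). The 2 genes in the shortened lists of all 3 replicates ranged from 2 to 4 when a replicate was left out, with 4 without replicate 3. The 18 other replication genes became 10 among the 1748 IDR peaks of higher signal. The alternative of 7 letters was added after seeing the data. Within 250 bp, PCNA and Orc5 had no pooled summit and the signal at Mcm5 was 82.3, and within 1000 bp the signal at Orc2 was 32.8. No paired analysis was possible because the study has 1 group. The depth is unknown, so a missing summit does not show that binding was absent.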

Other observations

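Letters of nuclear receptor half-sites were also counted. AAGTCA lay in the promoters of PCNA, Mcm3 and dpa, 3 of 10 genes, against 21.3% of other replication genes and 19.8% of all protein-coding genes, and AGGTCA in 0 of 10, against 6.38% and 7.53%. Within 500 bp of the TSS on either side, AAGTCA was at 6 of 10 genes, against 36.2% and 44.7%, and AGGTCA at 2 of 10, against 31.9% and 27.6%. The M1BP letters GGTCACACT were in those of Mcm3 and Orc5, against 12.8% and 6.78%. GAGAGA was in 0 of the 10 promoters and in 2.13% of those of other replication genes, against 17.1% of all genes.

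The pooled peak at dpa was 106 bp wide, whereas the median width in the pooled list was 420 bp. It was among 543 of the 30000 pooled peaks narrower than that median, and the IDR list held 542 such peaks. Its summit position therefore comes with a shorter interval than those of Mcm2, Mcm5 and Orc1, which were 420 bp wide.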
